A study of Mus musculus with 12 samples.

Results

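The genes of cholesterol and fatty acid synthesis were followed through the differentiation of mouse embryonic stem cells toward definitive endoderm, as 31 genes of the 54446 in the expression table. They were taken by gene symbol, with no cut on their measured values, but with earlier results of these data known. The set held 7 enzymes of the mevalonate arm, 11 enzymes from squalene to cholesterol, 6 genes of sterol sensing and sterol transport, and 7 genes of fatty acid synthesis. Poly(A) RNA of the E14 line was sequenced, with 4 groups of 3 libraries. The undifferentiated group, mESC, was kept in serum with LIF, a cytokine that holds the cells in self-renewal, on gelatin with irradiated mouse embryonic fibroblasts as feeders. The other groups were differentiated cells of the same line, dissociated and sorted by reporter expression into T+ cells, SOX17+/T+ cells (here double-positive) and SOX17+ cells. T, also called Brachyury, marks the primitive streak, and SOX17 marks endoderm. The medium, the day of differentiation and the making of the reporters were not given in the sources used here. Because only the other groups are described as differentiated and sorted, differences from mESC cannot be told apart from differences in culture and in sorting. Whether the 3 libraries of a group were separate cultures is not in the labels, and the spread that p-values measure is that of the libraries.

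Cells make cholesterol from acetyl-CoA. The mevalonate arm builds isoprenoid units and joins them to farnesyl pyrophosphate, and a second series of enzymes closes squalene into lanosterol and trims it to cholesterol. The transcription factor SREBP2, encoded by Srebf2, drives these genes, while SREBP1, encoded by Srebf1, acts mainly on fatty acid synthesis. Both factors are held in the endoplasmic reticulum by SCAP and the INSIG proteins when sterols are plentiful, and are carried to the Golgi and cut free when sterols are scarce. The LXR receptors respond to oxysterols and turn on genes of cholesterol efflux.

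SREBP factors bind sterol response elements in promoters, often beside a CCAAT box bound by NF-Y, so the promoter windows of the genes were searched for such letters. RefSeq windows on GRCm38.p6, from 250 bases before to 50 bases after the annotated start, matched 25 of the 31 genes by symbol; Fdps, Fdft1, Sqle, Stard4, Scd1 and Scd2 had none. The letters TCACNCCAC on either strand, a sterol response element-like string, stood in 1 of 25 genes (4.0%) and in 1.44% of all 27025 genes with a window. Its shorter core CACNCCAC, which lies inside the longer string, stood in 3 of 25 (12%) and in 7.12% of all genes. CCAAT on either strand stood in 21 of 25 (84%), against 41.1% of all genes and 43.6% of the 10690 tested genes with a window. The GC box letters GGGCGG also stood in 21 of 25 (84%), against 38.2% of all genes and 69.1% of tested genes. These matches describe letters and not bound sites. The windows of the 3 genes with the core and of the gene with most CCAAT matches are printed below on the strand of the gene, with the core or longer string and the CCAAT matches of both strands in capitals.
Hmgcs1 promoter (chr13:119690101-119690400, plus strand): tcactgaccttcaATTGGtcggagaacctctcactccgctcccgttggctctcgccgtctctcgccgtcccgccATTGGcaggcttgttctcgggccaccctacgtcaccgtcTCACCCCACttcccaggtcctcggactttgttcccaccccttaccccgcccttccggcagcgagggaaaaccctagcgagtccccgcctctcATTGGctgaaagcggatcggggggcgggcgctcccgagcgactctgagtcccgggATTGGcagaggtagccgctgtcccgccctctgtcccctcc
Acat2 promoter (chr17:12960676-12960975, minus strand): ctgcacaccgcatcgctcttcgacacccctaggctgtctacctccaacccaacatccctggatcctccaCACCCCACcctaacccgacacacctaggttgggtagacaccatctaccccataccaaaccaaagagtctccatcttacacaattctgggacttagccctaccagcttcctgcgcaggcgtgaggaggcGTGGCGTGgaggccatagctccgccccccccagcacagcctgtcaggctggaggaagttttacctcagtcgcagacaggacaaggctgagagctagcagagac
Insig1 promoter (chr5:28071162-28071461, plus strand): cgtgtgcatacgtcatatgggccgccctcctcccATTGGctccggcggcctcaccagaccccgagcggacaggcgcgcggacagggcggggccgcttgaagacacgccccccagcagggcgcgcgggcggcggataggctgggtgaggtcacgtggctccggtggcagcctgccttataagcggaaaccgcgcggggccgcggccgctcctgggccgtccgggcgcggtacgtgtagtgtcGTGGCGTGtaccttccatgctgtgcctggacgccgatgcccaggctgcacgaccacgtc
Mvk promoter (chr5:114444019-114444318, plus strand): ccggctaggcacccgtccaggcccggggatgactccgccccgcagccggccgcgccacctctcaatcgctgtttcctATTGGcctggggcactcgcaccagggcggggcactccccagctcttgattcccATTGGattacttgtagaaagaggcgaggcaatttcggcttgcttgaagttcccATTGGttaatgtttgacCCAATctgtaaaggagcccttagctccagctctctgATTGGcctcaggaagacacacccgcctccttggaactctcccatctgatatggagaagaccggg
Hmgcs1 held the longer string, with its core starting 136 bases before the annotated start, and 4 CCAAT matches. Mvk held 5 CCAAT matches and no core. Acat2 held 2 copies of the core and no CCAAT, and Insig1 held 1 of each, its core 9 bases before the start. In no window did core and CCAAT overlap.

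All 31 genes passed the filter for testing, 3 or more libraries with a TPM of 1 or higher, which 16097 genes passed. TPM, a transcript abundance, is scaled for transcript length and to the same total in every library. The depth behind single values is unknown. Within groups, Pearson's r between libraries was 0.9947 to 0.997 across tested genes, which are not independent replicates, and mitochondrially encoded genes took 4.01% to 6.93% of TPM. All 6 pluripotency markers fell in every sorted group against mESC, and the 9 definitive endoderm markers summed to 118 to 127 TPM in mESC, 441 to 556 in T+, 1518 to 1550 in double-positive and 2034 to 2169 in SOX17+ libraries. Krt8 and Krt18, with means of 180.3 and 184.6 TPM in T+ and 661.9 and 822.8 TPM in SOX17+ cells, carried most of the sums in all sorted libraries. In mESC Epcam (88.2 TPM) carried most. Of the 9, 6 were higher and 2 lower (Cxcr4 and Gsc) in SOX17+ than in T+ cells, and 5 were higher and 3 lower (Cxcr4, Gsc and Cer1) in SOX17+ than in double-positive cells. The 6 streak and mesoderm markers summed to 1.30 to 1.76 TPM in mESC and 1029 to 1104 TPM in T+ libraries. Their sums were 533 to 623 TPM in double-positive and 279 to 310 TPM in SOX17+ libraries. Hand1, with a mean of 264.6 TPM, carried most of the SOX17+ sums, and the part of this RNA in the results was not tested. The 11 fibroblast markers summed to 2614 to 3265 TPM in the mESC libraries and to 56.6 to 97.7 TPM in the sorted libraries, where S100a4 was listed at 0 in all double-positive and SOX17+ libraries and Lum in all T+ and SOX17+ libraries. The mESC libraries thus held RNA of fibroblast genes, which moved with every comparison against mESC, and its part in the differences of the lipid genes was not tested. Visceral endoderm markers summed to 107 to 123 TPM in SOX17+ libraries, to 5.50 to 7.22 TPM in T+, 12.1 to 14.1 TPM in double-positive and to 38.9 to 43.9 TPM in mESC. Markers of primitive blood and vessels summed to 121 to 247 TPM in SOX17+, 22.5 to 27.0 in double-positive, 4.47 to 6.72 in T+ and 31.1 to 32.1 in mESC. In mESC most of these sums came from 1 gene each, Rhox5 (37.1 TPM) and Pecam1 (30.3 TPM), which fell to 4.87 and 10.2 TPM in SOX17+ cells. In SOX17+ cells Ttr (73.5 TPM) and Hnf4a (29.5 TPM) carried most of the visceral endoderm sum. Hbb-bh1 (89.5 ± 46.0 TPM, SD, n = 3) and Hba-x (35.5 ± 17.1 TPM) carried most of the blood and vessel sum. These levels moved with the SOX17+ comparisons, and their part in the results was not tested. In such bulk samples, fewer cells of a type and less RNA per cell cannot be told apart.

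The 31 genes together were lowest in mESC and highest in SOX17+ cells. They summed to 1790 ± 21.7 TPM (SD, n = 3) in mESC, 3525 ± 190 in T+, 3174 ± 277 in double-positive and 4522 ± 210 in SOX17+ cells, or 0.179%, 0.353%, 0.317% and 0.452% of all TPM. The sums were 1.97, 1.77 and 2.53 times the mESC sum, and the mESC and SOX17+ libraries each stood apart from all others, while T+ and double-positive libraries overlapped. In SOX17+ cells the summed level was 2.49 times that of mESC for the mevalonate arm, 2.49 times for the enzymes from squalene to cholesterol, 2.54 times for sterol sensing and transport and 2.57 times for fatty acid synthesis. Abundant genes weigh most in such sums: without Scd1 and Scd2 the fatty acid sum went from 413.7 ± 9.96 TPM (SD, n = 3) in mESC to 629.5 ± 39.9 TPM in SOX17+ cells, 1.52 times. The median log2 fold change over the genes of a class was 1.14, 1.40, 0.99 and 0.75 in the same order.

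**Figure D1:**
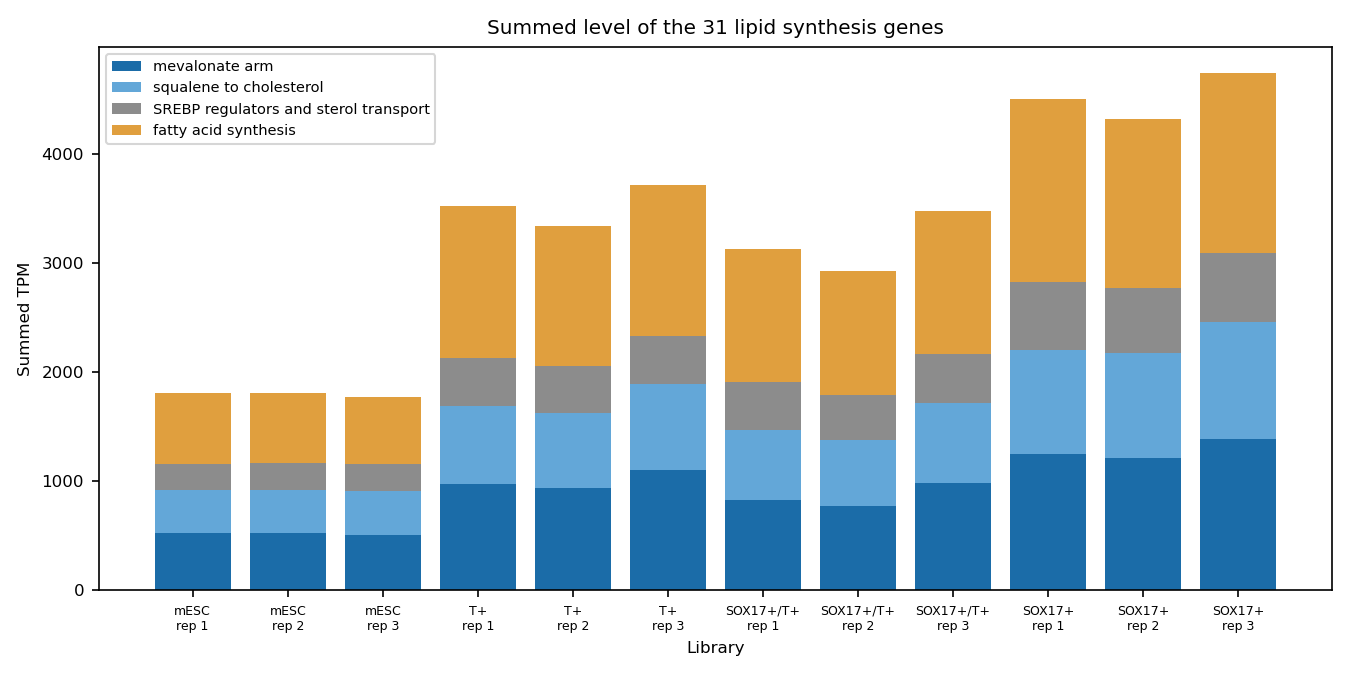
Summed TPM of the 31 genes in each of the 12 libraries (rep, replicate), stacked by class. The 3 mESC bars reach 1765 to 1805, the 3 SOX17+ bars 4320 to 4740, and the T+ and double-positive bars lie between them.

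Against mESC, 29 of the 31 genes rose in SOX17+ cells, 1 fell and 1 did not pass the test (limma on log2(TPM + 1), called at a Benjamini-Hochberg adjusted p under 0.05 over all tested genes). Of all tested genes, 35.4% were called higher and 50.0% lower in this comparison. The median log2 fold change was 1.14 for the 31 genes and -0.18 for all tested genes. In T+ cells 24 rose and 2 fell, where 34.5% of all tested genes were called higher and 49.5% lower, with medians of 0.78 and -0.17. In double-positive cells 25 rose and 2 fell, against 34.9% and 50.3%, with medians of 0.59 and -0.19. The 3 comparisons share the mESC libraries. With a further demand of at least 1.5-fold, 16 of the genes were called higher in double-positive cells and 1 lower. The mESC libraries lay below all 9 other libraries for 23 of the 31 genes, as they did for 28.4% of tested genes. The median of all tested genes moved with the scaling of the libraries: for SOX17+ against mESC scaling by median of ratios gave -0.04 and quantile normalization gave 0.05, and the genes that rose made up 41.5%, 47.9% and 52.4% of all calls as deposited and under these scalings. The median of the 31 genes stood 1.32, 1.33 and 1.29 above that of all genes in the same order. In T+ the share of calls that were higher went from 41.0% to 53.4% with quantile normalization, and in double-positive cells from 40.9% to 53.2%.

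**Figure D2:**
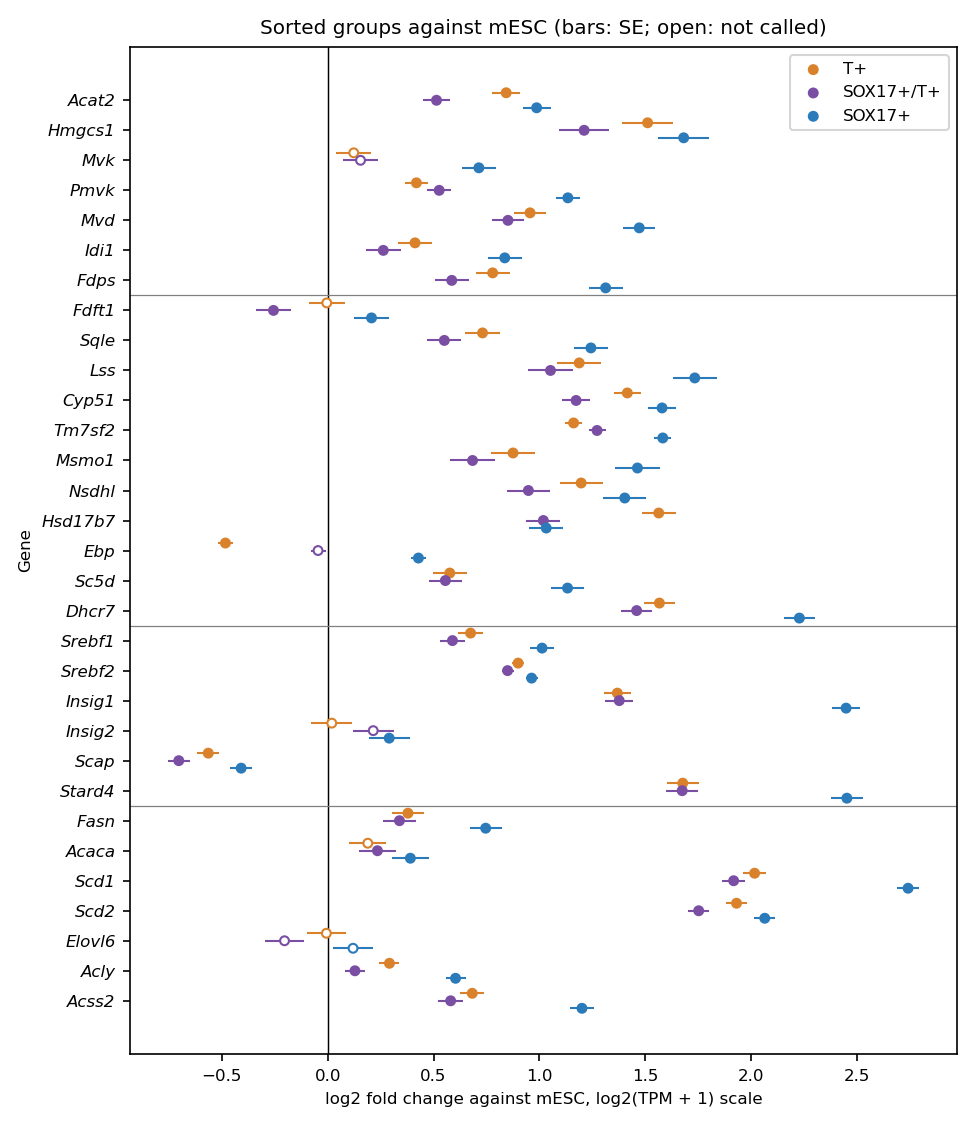
Log2 fold change of each gene against mESC on the log2(TPM + 1) scale in T+, double-positive and SOX17+ cells, with the standard error of the fit as bars and open circles where the call was not made. Most points lie right of 0, Scap lies left of it in all 3 groups, and the SOX17+ point is the furthest right for every gene but Hsd17b7.

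In the mevalonate arm all 7 genes rose in SOX17+ cells, and 6 of 7 in T+ and in double-positive cells. The enzyme that joins acetyl-CoA to acetoacetyl-CoA, Hmgcs1 (ENSMUSG00000093930.2, chromosome 13, 119690379 to 119708260, plus strand, GRCm38), changed most. It stood at 126, 123 and 123 TPM in mESC replicates 1, 2 and 3, at 339, 334 and 399 TPM in T+, at 267, 259 and 349 TPM in double-positive and at 379, 372 and 458 TPM in SOX17+ cells. All 9 sorted libraries lay above mESC, the T+ libraries overlapped both other sorted groups, the double-positive libraries lay below the SOX17+ libraries, and replicate 3 was the highest of each sorted group. The log2 fold change against mESC was 1.68 ± 0.12 (SE) in SOX17+ cells (adjusted p = 1.64e-07), 1.51 ± 0.12 in T+ and 1.21 ± 0.12 in double-positive cells. Fdps, the synthase of farnesyl pyrophosphate, stood at 160, 162 and 160 TPM in mESC, 277, 253 and 302 in T+, 242, 214 and 274 in double-positive and 398, 385 and 421 in SOX17+ cells. Its SOX17+ libraries lay above all others, and the T+ and double-positive libraries overlapped. The log2 fold change in SOX17+ cells was 1.31 ± 0.08 (adjusted p = 1.24e-08). Mvd, the decarboxylase of the arm, rose from 35.3 ± 1.56 TPM in mESC to 99.7 ± 4.93 TPM in SOX17+ cells (SD, n = 3), 1.47 ± 0.08 on the log2 scale.

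The other genes of the arm changed less. Pmvk, the second kinase, rose by 1.14 ± 0.06 (log2) in SOX17+ cells, Acat2, the cytosolic acetoacetyl-CoA thiolase, by 0.99 ± 0.07 and Idi1, the isopentenyl pyrophosphate isomerase, by 0.84 ± 0.08. Mvk (ENSMUSG00000041939.14, chromosome 5, 114444269 to 114460591, plus strand), mevalonate kinase, stood at 25.2, 25.8 and 24.3 TPM in mESC, 28.2, 25.9 and 28.2 in T+, 27.9, 24.3 and 32.5 in double-positive and 42.3, 39.9 and 43.3 in SOX17+ cells. Only its SOX17+ libraries stood apart. The call was made for SOX17+ cells (0.71 ± 0.08, adjusted p = 2.32e-06) and not for T+ (0.12 ± 0.08, adjusted p = 0.178) or double-positive cells (0.16 ± 0.08, adjusted p = 0.0939).

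**Figure D3:**
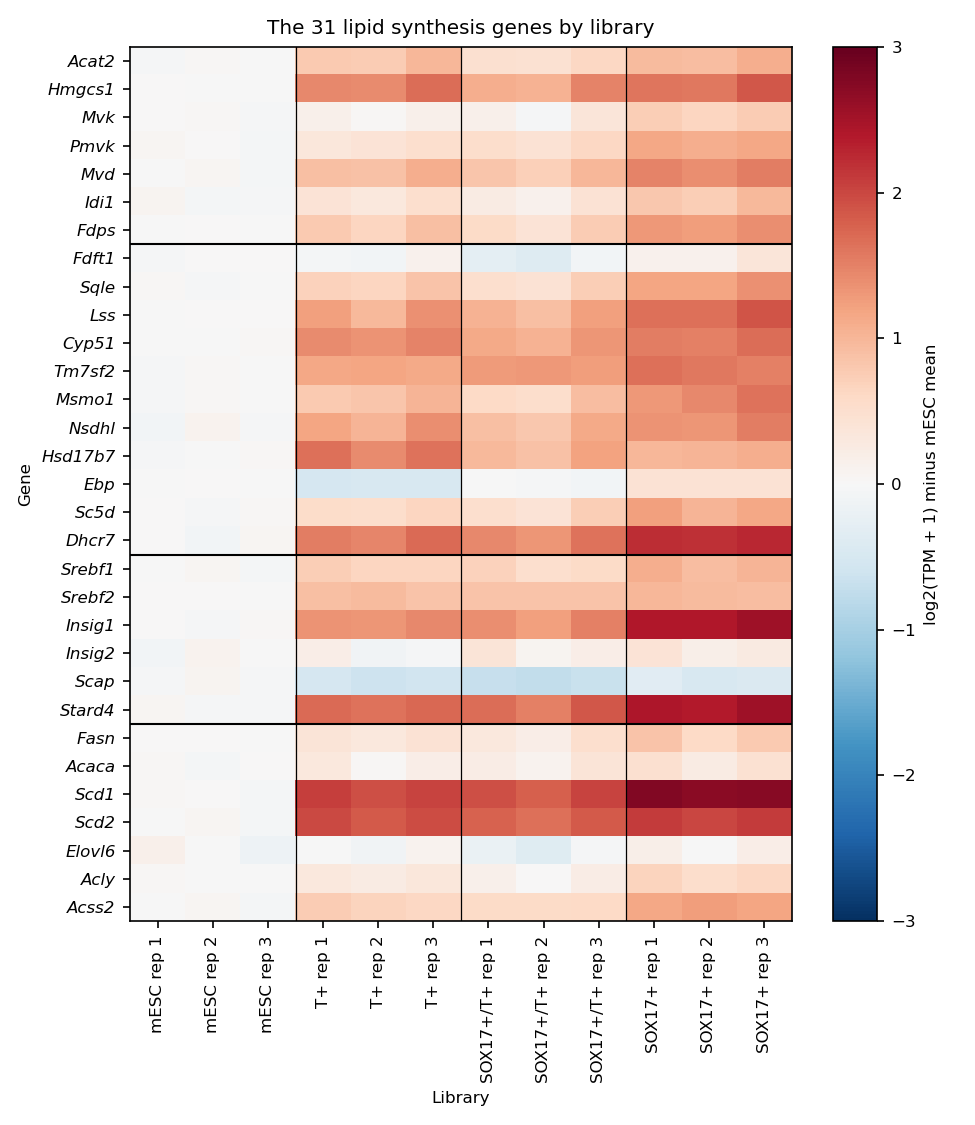
Level of each gene in each library as log2(TPM + 1) minus the mESC mean of that gene, with red for higher and blue for lower. Columns are the 12 libraries in their 4 groups and rows are the 31 genes, with lines between the classes; the deepest red is in Scd1, Insig1, Stard4 and Dhcr7 of the SOX17+ libraries.

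From squalene to cholesterol all 11 genes rose in SOX17+ cells, while 9 rose and 1 fell in T+ and in double-positive cells. Dhcr7 (ENSMUSG00000058454.15, chromosome 7, 143823145 to 143848410, plus strand), which reduces 7-dehydrocholesterol to cholesterol, had the largest fold of the class. It stood at 28.6, 26.5 and 29.3 TPM in mESC, 82.8, 79.9 and 93.9 in T+, 77.9, 72.0 and 88.4 in double-positive and 134, 133 and 140 in SOX17+ cells. The mESC and the SOX17+ libraries each stood apart. Its mean was 4.82 times the mESC mean in SOX17+ cells (log2 fold change 2.23 ± 0.07, adjusted p = 5.59e-12), 3.04 times in T+ and 2.82 times in double-positive cells. Lss, which closes oxidosqualene into lanosterol, rose by 1.73 ± 0.10, 1.19 ± 0.10 and 1.05 ± 0.10 (log2) in SOX17+, T+ and double-positive cells. For Sqle, the squalene epoxidase that starts this series of steps, the values were 1.24 ± 0.08, 0.73 ± 0.08 and 0.55 ± 0.08.

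The enzymes that demethylate and reshape the sterol rings also rose in all 3 groups, with SOX17+ values of 1.58 ± 0.06 for Cyp51, 1.58 ± 0.04 for Tm7sf2, 1.46 ± 0.10 for Msmo1, 1.40 ± 0.10 for Nsdhl and 1.13 ± 0.08 for Sc5d. Hsd17b7, a reductase of the same demethylating steps, did not follow the order of the others. It stood at 9.59, 9.80 and 10.1 TPM in mESC, 32.8, 27.8 and 32.7 in T+, 20.2, 19.0 and 23.8 in double-positive and 20.7, 20.7 and 22.0 in SOX17+ cells. T+ libraries lay above all others, and it was the 1 gene of the 31 called lower in SOX17+ than in T+ cells (-0.53 ± 0.08, adjusted p = 9.24e-05).

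Ebp and Fdft1 did not rise in all 3 groups: Ebp fell in T+ cells and Fdft1 in double-positive cells. Ebp (ENSMUSG00000031168.14, chromosome X, 8185329 to 8193512, minus strand), a sterol isomerase, stood at 35.4, 35.9 and 35.5 TPM in mESC, 24.8, 25.4 and 25.3 in T+, 35.1, 34.5 and 33.8 in double-positive and 48.2, 48.2 and 48.3 in SOX17+ cells. It was lowest in T+ cells and highest in SOX17+ cells, with no overlap of these groups with any other. It fell in T+ (-0.48 ± 0.04, adjusted p = 2.08e-08) and rose in SOX17+ cells (0.43 ± 0.04, adjusted p = 7.28e-08). In double-positive cells its value of -0.05 ± 0.04 did not pass the test, and scaling by median of ratios gave 0.11 and quantile normalization gave 0.20, both called. Fdft1, the squalene synthase, stood at 69.2, 70.8 and 71.4 TPM in mESC and at 57.2, 53.5 and 66.3 TPM in double-positive cells. Every double-positive library was below mESC, and the fall of Fdft1 by 0.26 ± 0.08 on the log2 scale (adjusted p = 0.0125) was lost without double-positive replicate 2 (adjusted p = 0.0597) and with median-of-ratios scaling (-0.10) and turned to 0.085 with quantile normalization. Its rise in SOX17+ cells was 0.21 ± 0.08 (adjusted p = 0.0353) and was lost without SOX17+ replicate 3 or without any 1 of the mESC libraries (adjusted p up to 0.162).

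Among the 6 genes of sterol sensing and transport, 5 rose and 1 fell in SOX17+ cells, and Insig1 and Stard4 changed most. Insig1 (ENSMUSG00000045294.11, chromosome 5, 28071363 to 28078662, plus strand), which retains the SCAP and SREBP complex and is itself an SREBP target, stood at 39.9, 39.0 and 40.6 TPM in mESC, 103, 100 and 110 in T+, 106, 94.1 and 116 in double-positive and 215, 216 and 236 in SOX17+ cells. The T+ and double-positive libraries overlapped, and the SOX17+ mean was 2.13 and 2.11 times theirs. Against mESC the SOX17+ mean was 5.58 times as high (2.45 ± 0.07, adjusted p = 6.73e-13). Stard4 (ENSMUSG00000024378.9, chromosome 18, 33199355 to 33213862, minus strand), which carries cholesterol between membranes, stood at 15.2, 14.2 and 14.3 TPM in mESC, 49.4, 46.8 and 50.0 in T+, 48.3, 43.1 and 55.3 in double-positive and 82.7, 80.1 and 89.8 in SOX17+ cells. Its libraries fell into the same order, with overlap of T+ and double-positive, and its SOX17+ mean was 5.79 times the mESC mean (2.45 ± 0.08, adjusted p = 2.63e-12).

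Srebf2, which encodes the factor itself, differed by 0.11 or less (log2) among the sorted groups. It stood at 108, 109 and 107 TPM in mESC, 203, 208 and 197 in T+, 195, 196 and 195 in double-positive and 217, 210 and 208 in SOX17+ cells. The step was between mESC and all sorted libraries, by 0.96 ± 0.03, 0.90 ± 0.03 and 0.85 ± 0.03 (log2) for SOX17+, T+ and double-positive cells. SOX17+ exceeded T+ by 0.06 ± 0.03, which did not pass the test (adjusted p = 0.0765). Srebf1, whose isoforms the table does not separate, rose by 1.01 ± 0.06 in SOX17+, 0.68 ± 0.06 in T+ and 0.59 ± 0.06 in double-positive cells. Scap, the escort of both factors, was the 1 gene that fell in SOX17+ cells and it fell in all 3 groups. Its levels were 41.2, 45.1 and 41.4 TPM in mESC, 29.7, 27.4 and 28.2 in T+, 25.9, 25.0 and 26.3 in double-positive and 33.5, 30.4 and 31.4 in SOX17+ cells. The mESC libraries stood above all others, and the log2 fold change was -0.41 ± 0.05 in SOX17+ (adjusted p = 6.46e-06), -0.56 ± 0.05 in T+ and -0.70 ± 0.05 in double-positive cells. Insig2 stood at 13.2 ± 0.865 TPM in mESC and 16.4 ± 1.43 TPM in SOX17+ cells (SD, n = 3), and its rise of 0.29 ± 0.10 (adjusted p = 0.0134) was lost without mESC replicate 1 or SOX17+ replicate 1 (adjusted p up to 0.0611).

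In fatty acid synthesis, 6 of 7 genes rose in SOX17+ cells, 5 in T+ and 6 in double-positive cells, and the stearoyl-CoA desaturases changed far more than the synthase. Scd1 (ENSMUSG00000037071.2, chromosome 19, 44394451 to 44407709, minus strand) stood at 30.5, 29.9 and 28.7 TPM in mESC, 129, 117 and 124 in T+, 117, 105 and 123 in double-positive and 209, 201 and 204 in SOX17+ cells. Its SOX17+ mean was 6.88 times the mESC mean (2.74 ± 0.05, adjusted p = 3.62e-14), the largest ratio among the 31 genes. Scd2 (ENSMUSG00000025203.5, chromosome 19, 44293676 to 44306864, plus strand) stood at 188, 197 and 181 TPM in mESC, 750, 682 and 740 in T+, 641, 600 and 678 in double-positive and 811, 764 and 807 in SOX17+ cells. Per length, it was the most abundant of the 31 genes in every sorted group. Its SOX17+ mean was 4.20 times the mESC mean (2.07 ± 0.05), and its step from T+ to SOX17+ was 0.13 ± 0.05 (adjusted p = 0.0338, lost without T+ replicate 2 or SOX17+ replicate 1 or 3, up to 0.149). That of Scd1 was 0.73 ± 0.05 (adjusted p = 1.10e-07). The 2 genes are related in sequence, and whether reads were split between them was not tested.

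The enzymes that make and elongate the chain changed less. Fasn, the fatty acid synthase, rose from 117.7 ± 1.44 TPM in mESC to 198.8 ± 18.6 TPM in SOX17+ cells (SD, n = 3), 0.75 ± 0.08 on the log2 scale (adjusted p = 1.06e-06). Acly, which makes cytosolic acetyl-CoA from citrate, rose by 0.60 ± 0.05 and Acss2, which makes it from acetate, by 1.20 ± 0.06. Acss2 was the lowest of the 31 genes, at 5.34 ± 0.248 TPM in mESC and 13.6 ± 0.464 TPM in SOX17+ cells. Acaca, the acetyl-CoA carboxylase, stood 0.39 ± 0.09 higher in SOX17+ cells (adjusted p = 9.05e-04) and 0.19 ± 0.09 higher in T+ cells, which did not pass the test (adjusted p = 0.0571). In double-positive cells the rises of Acaca (0.23 ± 0.09) and Acly (0.13 ± 0.05) were lost on leaving out single libraries: mESC replicate 2 or double-positive replicate 3 for Acaca (adjusted p up to 0.104), and mESC replicate 3 or double-positive replicate 1 or 3 for Acly (up to 0.108). Elovl6, the elongase of palmitate, was the 1 gene with no call in any comparison with mESC. It stood at 48.4, 43.2 and 39.2 TPM in mESC and 48.8, 43.4 and 49.8 TPM in SOX17+ cells, which overlapped (0.12 ± 0.09, adjusted p = 0.241). Its T+ value was -0.01 ± 0.09 and became 0.27 with quantile normalization; that of Fdft1, -0.00 ± 0.08, became 0.33.

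Between the single-positive groups, 24 of the 31 genes were higher in SOX17+ than in T+ cells, 1 was lower and 6 did not pass the test. Of all tested genes, 25.4% were called higher and 29.0% lower. The median log2 difference was 0.42 for the 31 genes and -0.03 for all tested genes. The largest differences were in Insig1 (1.08 ± 0.07), Ebp (0.91 ± 0.04), Stard4 (0.78 ± 0.08), Scd1 (0.73 ± 0.05), Pmvk (0.72 ± 0.06) and Dhcr7 (0.66 ± 0.07). Acat2, Hmgcs1, Nsdhl, Srebf2, Acaca and Elovl6 were not called, with differences of 0.06 to 0.21. A difference of at least 1.5-fold was called higher for 8 genes and lower for none, where Hsd17b7 missed that size. The calls of Fdft1, Cyp51, Insig2, Scap and Scd2 were lost when 1 of 3 to 8 libraries was left out (adjusted p up to 0.202). All 3 SOX17+ libraries lay above the other 9 libraries for 21 of the 31 genes, as they did for 11.1% of tested genes.

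Against double-positive cells, 28 of the 31 genes were higher in SOX17+ cells and limma called none lower, also at an unadjusted p under 0.05. The 3 without a call were Hsd17b7 (0.01 ± 0.08), Insig2 (0.08 ± 0.10) and Acaca (0.16 ± 0.09). Of all tested genes, 19.8% were called higher and 16.8% lower, and the medians were 0.47 for the 31 genes and 0.00 for all. Insig1 led again (1.07 ± 0.07, adjusted p = 7.89e-08), before Scd1 (0.82 ± 0.05), Msmo1 and Stard4 (0.78 ± 0.10 and 0.78 ± 0.08), Dhcr7 (0.77 ± 0.07) and Fdps (0.73 ± 0.08). In 11 genes the difference was called and at least 1.5-fold. The call of Elovl6 (0.32 ± 0.09, adjusted p = 0.0154) was lost without double-positive replicate 2 or SOX17+ replicate 1 or 3 (up to 0.0671), and that of Srebf2 (0.11 ± 0.03) with quantile normalization (0.03).

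Double-positive cells carry both reporters, and their levels were set against T+ cells and against the midpoint of the T+ and SOX17+ means on the log2 scale. Against T+ cells, 1 gene was higher (Ebp, 0.44 ± 0.04, adjusted p = 1.24e-06) and 6 were lower, where 12.6% of all tested genes were called higher and 15.8% lower. The 6 were Hsd17b7 (-0.55 ± 0.08), Acat2 (-0.33 ± 0.07), Fdft1 (-0.25 ± 0.08), Cyp51 (-0.24 ± 0.06), Scd2 (-0.18 ± 0.05) and Acly (-0.16 ± 0.05). The medians were -0.11 for the 31 genes and -0.03 for all. Same-numbered T+ and double-positive libraries deviated together. With the replicate number as a block over all 12 libraries, 11 genes were lower and 2 higher, where 18.1% and 14.3% of all tested genes were. The block added Hmgcs1, Fdps, Sqle, Msmo1 and Nsdhl to the lower genes (adjusted p = 0.0103, 0.0190, 0.0169, 0.0490 and 0.0320) and Tm7sf2 to the higher ones (0.0422). The number of lower genes depended on single libraries: it was 2 without T+ replicate 3 or without double-positive replicate 2, 3 without T+ replicate 1 and 13 without double-positive replicate 3. It was 10 without replicate 3 of every group and 3 with no filter on low values. The higher genes numbered 2 without T+ replicate 1, SOX17+ replicate 1 or SOX17+ replicate 3. No gene was both called and at least 1.5-fold lower or higher in double-positive than in T+ cells.

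Relative to the midpoint, 24 of the 31 genes were lower in double-positive cells and none was higher in limma, also at an unadjusted p under 0.05. This distance follows from the comparisons of double-positive with T+ and with SOX17+ cells and is no separate result. A gene level in double-positive and T+ cells and higher in SOX17+ cells must lie below the midpoint. Insig1 differed by 0.01 ± 0.07 between double-positive and T+ cells, and Stard4 by -0.00 ± 0.08. Of all tested genes 5.44% were called lower and 4.43% higher, and the medians were -0.32 for the 31 genes and -0.02 for all. The mean TPM of double-positive cells lay below both single-positive means for 23 of the 31 genes, as for 22.8% of tested genes. The largest distances were those of Insig1 (-0.53 ± 0.06, adjusted p = 1.22e-04), Msmo1 (-0.49 ± 0.09), Fdps and Scd1 (-0.46 ± 0.07 and -0.46 ± 0.05), and Sqle and Dhcr7 (-0.44 ± 0.07 and -0.44 ± 0.06). Ebp, Tm7sf2, Srebf2, Insig2, Fasn, Acaca and Elovl6 were not called, and the value of Insig2, 0.06 ± 0.08, was the 1 above 0. None of the 24 genes was as far as 1.5-fold below the midpoint. The count ranged from 16 to 26 over the fits that left out libraries, and Hmgcs1 (-0.39 ± 0.10, adjusted p = 0.0432) and Mvk (-0.26 ± 0.07, adjusted p = 0.0352) lost their calls when any 1 of 10 libraries and any 1 of 6 was left out (up to 0.173 and 0.163). Of all calls at the midpoint the higher ones made up 44.9% as deposited, 52.8% when scaled by median of ratios and 55.9% after quantile normalization.

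**Figure D4:**
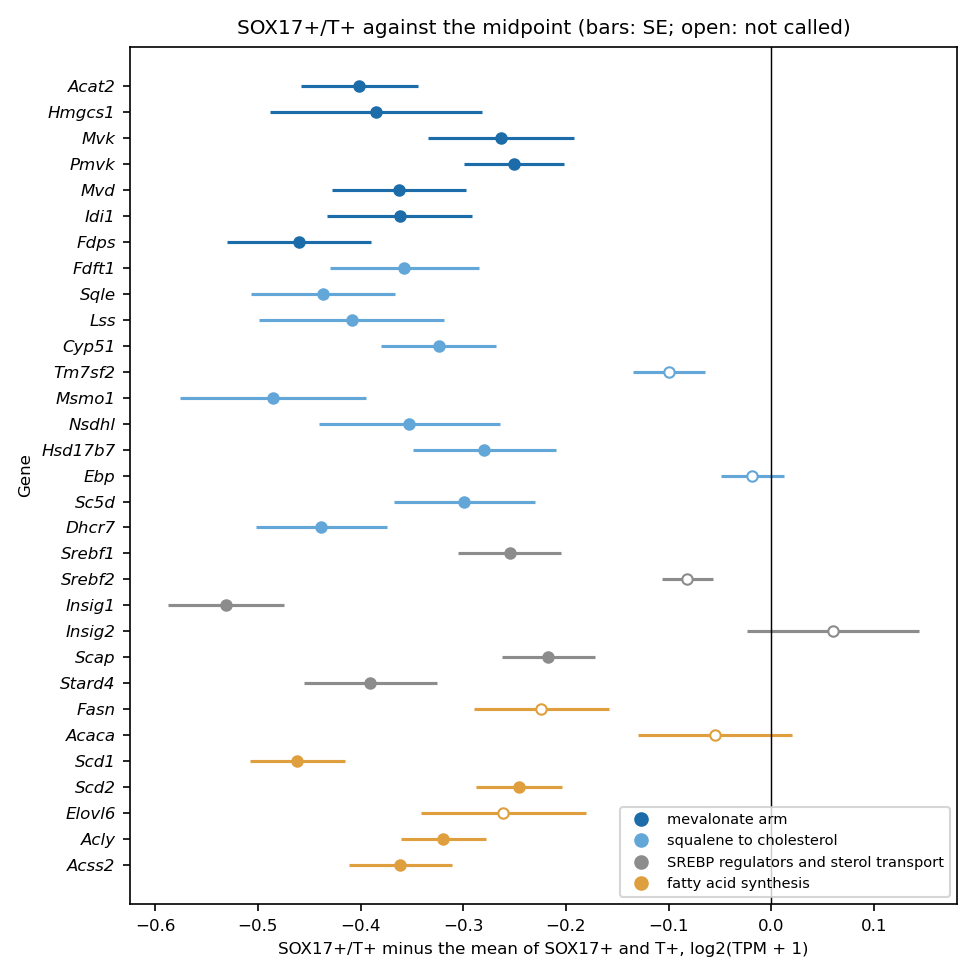
Distance of double-positive cells from the midpoint of SOX17+ and T+ cells for each gene in log2(TPM + 1) units, coloured by class, with the standard error as bars and open circles where the call was not made. Of the 31 points 30 lie left of 0, and Insig1 lies furthest left.

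The libraries of a sorted group did not agree fully on the sterol genes. The mean log2(TPM + 1) of the 18 enzymes of the mevalonate arm and of the steps from squalene to cholesterol deviated from its group mean by -0.02, -0.08 and 0.11 in T+ replicates 1, 2 and 3, by -0.03, -0.12 and 0.15 in double-positive and by -0.03, -0.06 and 0.09 in SOX17+ cells. In mESC the deviations were within 0.01. Replicate 3 was thus the highest and replicate 2 the lowest in each sorted group. By single genes, replicate 3 was the highest in each of the 3 sorted groups for 16 of the 31 genes, as for 9.19% of tested genes, and all but Insig1, Stard4 and Elovl6 of these were sterol enzymes. In mESC it was the highest for 7 of the 31 genes, as for 24.3% of tested genes. The order was not confined to lipid genes. Among the markers, T, Foxa2 and Cer1 were also highest in replicate 3 and lowest in replicate 2 of each sorted group. Cer1 stood at 8.69, 6.72 and 27.3 TPM in double-positive replicates 1, 2 and 3. Mesp1 was lowest in replicate 3 of each sorted group, and other markers varied. The pattern and these markers were noticed in these values and have no test, and the part of cell state in it was not tested. The 7 fatty acid genes deviated by 0.05, -0.08 and 0.03 in T+, by -0.00, -0.11 and 0.11 in double-positive and by 0.05, -0.08 and 0.03 in SOX17+ replicates 1, 2 and 3.

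**Figure D5:**
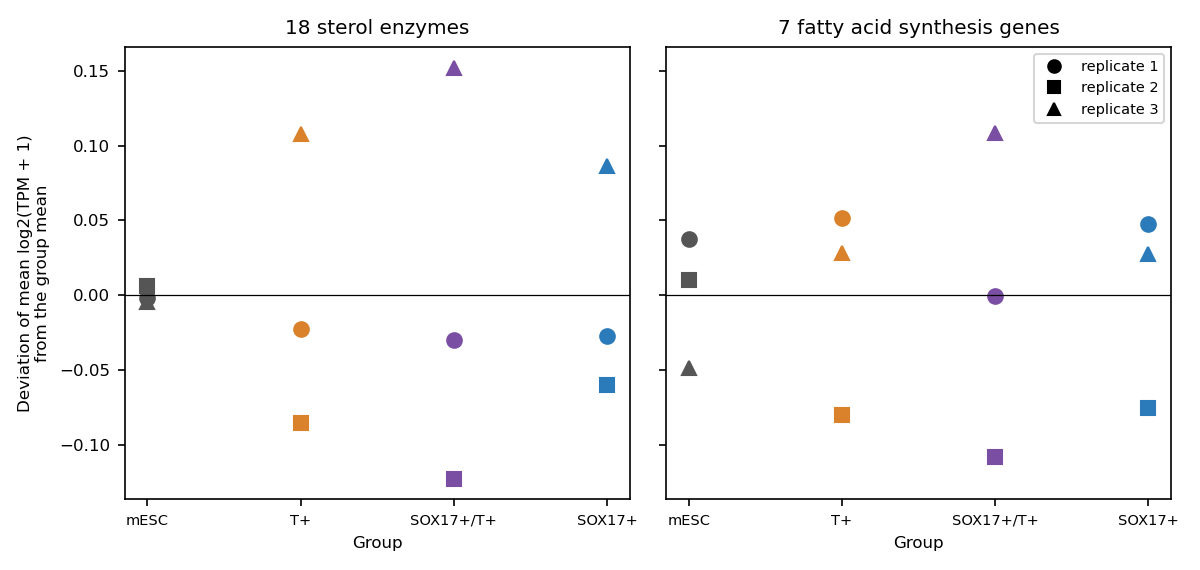
Deviation of the mean log2(TPM + 1) of 18 sterol enzymes (left) and 7 fatty acid synthesis genes (right) from its group mean, for each library, with symbols for the replicate number. On the left the replicate 3 triangles lie at 0.09 to 0.15 in the sorted groups and near 0 in mESC.

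Genes of the same pathways outside the 31 were read from 8 lists. Their counts against mESC stand beside the 35.4% of all tested genes called higher and 50.0% called lower in SOX17+ cells. The counts for efflux and storage, fatty acid oxidation, triglycerides and isoprenoid use lay near these shares and are no result about those lists. Of 2 further sterol enzymes, 1 rose and 1 fell in SOX17+ cells. Lbr, a sterol reductase of the inner nuclear membrane, rose by 0.59 ± 0.04 (log2, adjusted p = 2.71e-09). Ggps1, which lengthens farnesyl pyrophosphate for protein prenylation, fell by 0.52 ± 0.14.

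All 7 genes of sterol uptake and lysosomal export rose in SOX17+ cells, and 6 of 7 rose and 1 fell in T+ and in double-positive cells. Scarb1, the HDL receptor, rose by 2.56 ± 0.06, and Npc1 and Npc2, which pass cholesterol out of lysosomes, by 2.25 and 1.92. The 1 gene that fell in T+ and double-positive cells was Gramd1b, a sterol carrier between membranes, at 9.12 ± 0.565 TPM in mESC, 1.62 ± 0.254 in T+, 2.44 ± 0.153 in double-positive and 12.2 ± 1.71 in SOX17+ cells.

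Of 9 tested genes of 10 in sterol efflux, storage and LXR, 4 rose and 5 fell in SOX17+ cells. The cholesterol exporters Abca1 and Abcg1 fell by 2.11 ± 0.12 and 2.44 ± 0.11. Abca1 stood at 4.98, 5.36 and 4.92 TPM in mESC and at 0.443, 0.403 and 0.370 TPM in SOX17+ cells, and Abcg1 at 11.0, 11.1 and 10.4 TPM and at 0.937, 1.25 and 1.37 TPM. Ch25h, which makes 25-hydroxycholesterol, was at 1.45 to 2.15 TPM in mESC and at 0.0595 to 0.147 TPM in SOX17+ cells. Soat1, which esterifies cholesterol for storage, rose by 2.92 ± 0.08, from 17.8 ± 0.248 to 141.6 ± 13.4 TPM (SD, n = 3). Mylip, also of this list, stood at 3.61 ± 0.283 TPM in mESC and at 7.77 ± 0.763 TPM in SOX17+ cells. LXR activity was not tested. The falls against mESC stand beside the drop of the 11 fibroblast markers given above, and the part of feeder RNA in them was not tested. Among factors that process or assist SREBP, 4 of 10 rose and 3 fell in SOX17+ cells as deposited. When scaled by median of ratios or after quantile normalization 7 rose. Under these scalings the higher share of all calls also went from 41.5% to 47.9% and 52.4%. The rises as deposited lay near the 35.4% of all tested genes called higher, and no result is read from these counts. A pair of subunits of NF-Y fell, Nfyc by 1.26 ± 0.06 and Nfyb by 0.92 ± 0.07. The remaining subunit, Nfya, stood at 29.96 ± 1.23 TPM in mESC and 32.1 ± 1.59 TPM in SOX17+ cells (0.10 ± 0.05, adjusted p = 0.115, not called) and was called higher in T+ and in double-positive cells (0.39 ± 0.05 and 0.20 ± 0.05). Erlin2, which takes part in sterol-regulated protein breakdown at the endoplasmic reticulum, rose by 1.10 ± 0.04.

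Of 20 tested genes of 21 in further fatty acid synthesis, elongation and desaturation, 11 rose and 5 fell in SOX17+ cells. Among its desaturases, Fads1 and Fads2, which act on polyunsaturated fatty acids, rose and Fads3 fell. Fads1 stood at 41.9, 44.3 and 42.3 TPM in mESC and at 168, 168 and 169 TPM in SOX17+ cells (1.95 ± 0.04), and Fads2 at 43.3, 44.8 and 42.6 TPM and at 224, 214 and 214 TPM (2.29 ± 0.05), while Fads3 fell by 1.75 ± 0.08, from 14.4 ± 1.46 TPM in mESC to 3.56 ± 0.235 TPM in SOX17+ cells. Elovl7 rose by 2.19 ± 0.11, and Acacb, the acetyl-CoA carboxylase at mitochondria, fell by 1.82 ± 0.11. Of 14 tested genes of 15 in fatty acid oxidation, 5 rose and 7 fell. Cpt1a, which commits long-chain fatty acids to oxidation, fell most, from 24.7, 26.0 and 25.6 TPM in mESC to 0.259, 0.269 and 0.247 TPM in SOX17+ cells (-4.39 ± 0.07, adjusted p = 6.02e-15), and Slc25a20, Hadhb and Acadm of the same route fell by 1.71, 1.68 and 1.17. Decr1, Cpt2 and Hadh, also of fatty acid oxidation, rose by 1.01 ± 0.05, 0.94 ± 0.05 and 0.93 ± 0.03. Of 11 genes of triglyceride synthesis and storage, 3 rose and 5 fell, among them the lipases Mgll by 4.54 ± 0.08 and Lipe by 1.31 ± 0.08, while Dgat2, which adds the last chain of a triglyceride, rose by 1.35 ± 0.12. Of 10 genes that use isoprenoids for other products, 3 rose and 6 fell in SOX17+ cells, with 5 falls when scaled by median of ratios and 3 after quantile normalization. Pdss1, of ubiquinone synthesis, fell by 1.56 ± 0.09, and Coq2, of the same route, rose by 0.86 ± 0.04.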

How the data were processed

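Poly(A) RNA of 12 libraries was measured by stranded, paired-end RNA sequencing, per the labels. The builds mm10 and GRCm38 and the tools STAR, StringTie and cutadapt, without versions, are those of the submitters' processing notes; the strand setting was not given in the sources used here. What the authors deposited is 1 table of TPM, so depth per value is unknown and no test on counts was made. Its 54480 rows held 282 empty cells, which were set to 0, and 11 genes split over rows were summed, leaving 54446 genes. In the GRCm38 annotation Fdft1, Srebf1, Cyp51 and Acss2 overlap genes on the other strand. The 16097 genes reaching a TPM of 1 in 3 or more libraries were fitted on log2(TPM + 1) with 1 mean per group over all 12 libraries (limma 3.58.1 in R 4.3.3, eBayes with trend and robust, 8 residual degrees of freedom), with 2-sided p-values adjusted by Benjamini-Hochberg over all tested genes and called under 0.05. This scale understates changes of low genes. Same-numbered T+ and double-positive libraries correlated after removal of group means (r = 0.204, 0.150 and 0.242), and every other pair of groups had at least 1 value of 0.1 or less. Double-positive and SOX17+ libraries gave 0.046, 0.178 and 0.224 for replicates 1, 2 and 3, and T+ and SOX17+ libraries gave 0.025, 0.033 and 0.148. The members and gene lists were chosen with earlier results of these data known. All 31 members could be named, and of each list up to 4 called genes of largest change per comparison; some genes of the lists are not reported here. Krt8, Krt18, Epcam, Cxcr4, Gsc, Cer1, Hand1, Rhox5, Ttr, Hnf4a, Pecam1, Hbb-bh1, Hba-x, Mylip, Nfya, Fads3, Decr1, Cpt2 and Hadh were named after their values were seen. Values of named genes in other comparisons are given as levels. Alternatives were another pseudocount, filter, scaling, variance fit or set of groups, the replicate block, a 1.5-fold demand and leaving out libraries. Leaving out replicate 3 of every group was chosen after seeing the data.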

Additional observations from a re-analysis of the deposited data

How the results depend on the processing

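Of 217 tests of the 31 genes over 7 comparisons, 167 made a call, and 23 of these calls were lost in at least 1 fit without a single library. No called direction of a member turned over except that of Fdft1 in double-positive cells against mESC (0.085 with quantile normalization). Among values not called as deposited, quantile normalization turned those of Fdft1 (0.33) and Elovl6 (0.27) in T+ cells against mESC and of Ebp in double-positive cells against mESC (0.20), the last also with median-of-ratios scaling (0.11). The cause was not tested. With calls also required to be at least 1.5-fold, fewer genes can pass by construction: 16 were higher and 1 lower in double-positive cells and 0 lower in SOX17+ and in T+ cells against mESC, 8 higher and 0 lower in SOX17+ than in T+, 11 higher in SOX17+ than in double-positive, 0 higher and 0 lower in double-positive than in T+, and 0 lower than the midpoint. With median-of-ratios scaling, and also with quantile normalization, 1 gene was lower in double-positive cells than in mESC and 2 were higher than in T+. With no filter on low values 3 genes were lower in double-positive than in T+ cells, where more genes share the adjustment. The replicate block, meant to pair T+ with double-positive libraries, gave 11 lower and 2 higher there and moved no other count of members by over 1.5 times. It was fitted over all 12 libraries, so it also took same-numbered mESC and SOX17+ libraries as paired. Over the fits without single libraries and without replicate 3 of every group, the count lower in double-positive cells ranged from 2 to 13 against T+ and from 1 to 3 against mESC, and the count higher than in T+ from 1 to 2. The other counts stayed within 1.5 times: 27 to 29 higher in SOX17+, 24 to 25 in T+ and 23 to 27 in double-positive cells against mESC, 20 to 25 in SOX17+ against T+, 27 to 28 in SOX17+ against double-positive, and 16 to 26 lower than the midpoint. The shorter promoter core stood in 12% of the genes with a window, where the longer string that contains it stood in 4.0%, and can only equal or exceed it. Depth is unknown, so the precision of low values such as those of Acss2 is too.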
